A study of Homo sapiens with 6 samples.

Results

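The 9 genes described here encode the receptors of interleukin 17, the adaptors that carry its signal and the effectors that act on target genes in epithelium. They are IL17RA, IL17RC and IL17RE (receptor chains), TRAF3IP2 and TRAF6 (adaptors), CEBPB, CEBPD and NFKBIZ (nuclear effectors) and LCN2 (a secreted product). They were taken by name, with earlier results of these data known, from a table of 20476 genes in which all 9 were found. The count filter kept 8 of them and left out LCN2, whose counts are given below. The cells were SW620, an established human colorectal cancer line, and there were 6 libraries. A stable short hairpin against ECM1 was present in 3 of them (shECM1) and a negative control hairpin in the other 3 (shNC). Which hairpin sequence was used, and whether each line was a pool or 1 clone, is not given in the sources used here, and no drug or cytokine is named in the labels. The table's columns bear a letter and a number. C was read as shNC and S as shECM1. Should the submitters have meant the reverse, each direction below turns round.

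Interleukin 17A and 17F signal through a receptor of IL17RA and IL17RC, and interleukin 17C, made by epithelial cells themselves, through IL17RA and IL17RE. The receptor tails recruit Act1, the product of TRAF3IP2, which engages the ubiquitin ligase TRAF6 and through it NF-kB and MAP kinases. The transcription factors C/EBP beta (CEBPB) and C/EBP delta (CEBPD) and the nuclear I-kappa-B protein zeta (NFKBIZ) then act on genes such as LCN2, a siderophore-binding lipocalin, and CCL20, the chemokine ligand of CCR6. The study set out to examine how ECM1, a secreted matrix glycoprotein, bears on CCL20, and these genes lie upstream of CCL20 in epithelium.

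The promoters of NFKBIZ, CEBPB and LCN2, and of CCL20 as the output the study asks about, are shown because they are the sequences on which this pathway's transcription factors are known to act. Each runs from 250 bases before to 50 bases after the annotated start, 5′ to 3′ on the gene's strand, in RefSeq's GRCh38.p14 table. Capitals mark matches to 3 motifs searched on both strands, GGGA followed by any 4 bases and CC (NF-kB), TTGCNNAA (C/EBP) and TGANTCA (AP-1). CEBPB and NFKBIZ have a second annotated start each, which is not printed.
NFKBIZ, chr3:101827740-101828039, plus strand: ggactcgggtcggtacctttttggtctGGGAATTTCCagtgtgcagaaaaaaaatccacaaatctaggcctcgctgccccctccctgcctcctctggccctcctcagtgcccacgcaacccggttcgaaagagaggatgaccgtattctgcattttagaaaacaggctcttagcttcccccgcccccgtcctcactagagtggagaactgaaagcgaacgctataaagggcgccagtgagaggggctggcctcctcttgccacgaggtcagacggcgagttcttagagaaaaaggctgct
CEBPB, chr20:50190580-50190879, plus strand: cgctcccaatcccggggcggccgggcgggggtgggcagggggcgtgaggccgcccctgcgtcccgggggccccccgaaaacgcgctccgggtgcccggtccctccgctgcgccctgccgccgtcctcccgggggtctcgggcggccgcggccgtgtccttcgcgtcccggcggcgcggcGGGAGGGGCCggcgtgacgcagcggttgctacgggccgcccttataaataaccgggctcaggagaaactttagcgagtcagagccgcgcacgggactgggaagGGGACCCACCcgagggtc
LCN2, chr9:128149203-128149502, plus strand: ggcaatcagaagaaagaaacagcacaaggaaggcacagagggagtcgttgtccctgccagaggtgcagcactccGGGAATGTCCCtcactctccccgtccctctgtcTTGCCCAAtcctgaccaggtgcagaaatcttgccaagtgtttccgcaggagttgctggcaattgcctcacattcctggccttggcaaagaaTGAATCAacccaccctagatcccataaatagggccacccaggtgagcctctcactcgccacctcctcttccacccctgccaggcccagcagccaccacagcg
CCL20, chr2:227813592-227813891, plus strand: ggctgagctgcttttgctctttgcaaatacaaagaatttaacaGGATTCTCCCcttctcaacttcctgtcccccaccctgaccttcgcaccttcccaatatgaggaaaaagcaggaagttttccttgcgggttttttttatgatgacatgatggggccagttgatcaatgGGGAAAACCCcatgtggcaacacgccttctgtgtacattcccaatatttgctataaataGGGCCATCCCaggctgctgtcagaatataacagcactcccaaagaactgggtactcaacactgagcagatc

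The RefSeq table held 11 windows for 7 of the 9 genes and none for IL17RA and CEBPD. The NF-kB letters were in 7 of these 11 windows, from IL17RC, IL17RE, CEBPB, NFKBIZ and LCN2, where 25.6% of all 35116 promoter windows of the same length held them. The 2 IL17RE windows overlap and hold a single site in common, so these 7 windows are not independent of each other. In NFKBIZ the match GGGAATTTCC began 223 bases before the start, and in CCL20 the match GGGAAAACCC began 80 bases before it. LCN2 was the only one of the 7 genes with all 3 motifs. Its window held GGGAATGTCC and, shifted by a base and read on the other strand, GGAATGTCCC, with the C/EBP letters TTGCCCAA and an AP-1 match further on. The C/EBP letters were in 10.5% and the AP-1 letters in 7.7% of all windows. The AP-1 letters were also in a TRAF3IP2 window. The motif letters were chosen with the windows known, and a match describes letters only.

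Before the 9 genes, the targeted gene was read as a check of the labels. ECM1 stood at 14.8, 13.6 and 8.41 CPM in shECM1 replicates 1, 2 and 3, against 38.8, 19.0 and 52.3 CPM in shNC. CPM here are counts scaled to a common library total, with trimmed mean of M values (TMM) factors. The groups did not overlap, at a log2 fold change of -1.58 ± 0.32 (SE). This was not called by edgeR (adjusted p = 0.0973) and was called by DESeq2 (adjusted p = 0.0255). Single libraries moved it from -1.24 without shNC replicate 3 to -1.88 without shNC replicate 2. Library totals ran from 9881720 to 16813951 counts in shECM1 and from 11792872 to 14781799 in shNC. Replicate 2 of shNC stood apart from its group and nearer to the shECM1 libraries on the first principal component. It lay at 8.64 there, against 16.6 to 23.3 for the shECM1 libraries and -25.2 and -41.3 for the other shNC libraries. Colorectal epithelial markers summed to 10338 to 11679 CPM in shECM1 and 10666 to 15374 CPM in shNC, and 10 of 12 were tested. Of the 10, 7 had a negative log2 fold change, beside 48.6% of all tested genes. At an unadjusted p under 0.05, 3 lay lower, beside 14.2% of all tested genes. These were CEACAM5 (-0.84, with no overlap), CDH1 (-0.43) and CDH17 (-0.42, with no overlap). Such separation on the lower side was found in 13.2% of all tested genes. DESeq2 called CEACAM5 (adjusted p = 0.00848) and edgeR did not (adjusted p = 0.0973). KRT8, KRT18 and EPCAM were high in every library, while KRT20, LGALS4 and GPA33 stayed under 2 CPM in each and CDX1 had at most 1 count. The part of these markers in the results below was not tested. PTPRC, CD3E, ELANE, PDGFRA and KDR, defining markers of leukocytes, T cells, neutrophil precursors, fibroblasts and endothelium, had 0 counts in every library. Some genes of the same lists were detected. The fibroblast marker LUM had means of 9.23 CPM in shECM1 and 10.8 CPM in shNC. In the same order, the endothelial marker VWF had 6.11 and 7.83 CPM and the macrophage marker LYZ 5.57 and 10.9 CPM. Other lists of markers were low but not all level between the groups. Fibroblast markers, 3 of 7 tested, summed to 16.7 to 20.9 CPM in shECM1 and 23.6 to 35.5 CPM in shNC. Among them COL1A1 had 9.73, 7.21 and 8.19 CPM in shECM1, against 18.1, 13.1 and 21.5 CPM in shNC. Its log2 fold change was -1.08 ± 0.21 (SE), which DESeq2 called (adjusted p = 0.000833) and edgeR did not (adjusted p = 0.0973). Endothelial markers, 2 of 5 tested, summed to 8.04 to 9.22 CPM in shECM1 and 9.73 to 12.1 CPM in shNC. The groups did not overlap in either sum. Macrophage and monocyte markers, 2 of 7 tested, summed to 6.65 to 7.90 CPM in shECM1 and 7.90 to 18.5 CPM in shNC, so the groups just touched. T cell markers summed to 1.61 to 2.78 CPM in shECM1 and 1.58 to 3.05 CPM in shNC, and neutrophil markers to 0.894 to 1.76 CPM in shECM1 and 0.716 to 0.931 CPM in shNC. The part of these lists in the results below was not tested either.

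No member of the pathway passed the test after adjustment. The edgeR quasi-likelihood test with Benjamini-Hochberg adjustment called 0 of the 8 tested members and 0 of 12576 genes (0%). All 8 had a negative log2 fold change, shECM1 minus shNC, with a median of -0.38, beside 48.6% negative and a median of 0.01 over all tested genes. CEBPD among them stood near 0, at -0.01 ± 0.19 (SE), and turned positive under some alternative settings. At an unadjusted p under 0.05, IL17RE, TRAF3IP2 and CEBPB lay lower in shECM1, where 22.5% of all tested genes passed that threshold and 14.2% did so on the lower and 8.31% on the higher side. In IL17RE and TRAF3IP2 every shECM1 library lay below every shNC library, as in 13.2% of all tested genes. The count of members at that threshold was 0 without shNC replicate 1 or 3, where 12% and 11.3% of all genes passed it. It was 1 without shECM1 replicate 2 (13.5% of all genes), 2 without shECM1 replicate 1 or 3 (17.3% and 22.7%) and 4 without shNC replicate 2 (37.3%). The members' count was thus lowest and highest where the share over all genes was. DESeq2 also called 0 of the 8, beside 5.13% of genes called lower, and limma-voom called 0. Less RNA per cell and fewer cells that express a gene cannot be told apart in these summed counts.

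**Figure D1:**
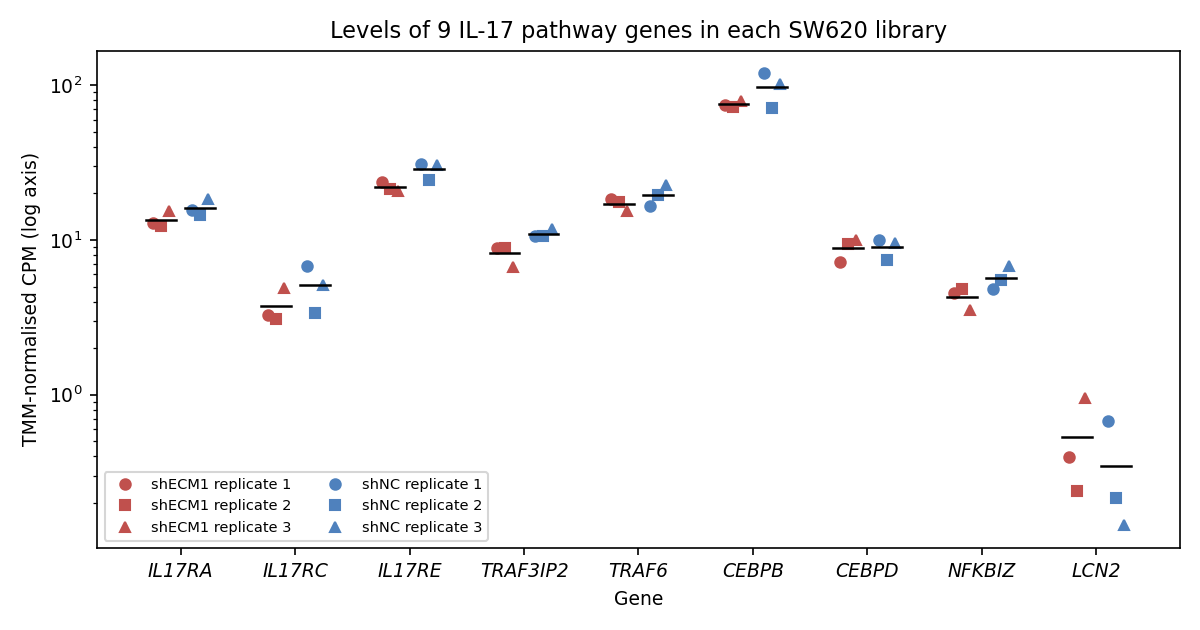
TMM-normalised CPM of the 9 genes on a log axis, with 1 point per library (red shECM1, blue shNC, marker shape for the replicate number) and a black line at each group's mean. CEBPB lies above the other genes and LCN2 below them in every library, and the groups are separate in IL17RE and TRAF3IP2.

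Of these 3 receptor chains, IL17RE was the most highly expressed per transcript length. IL17RE (ENSG00000163701, GRCh38 chromosome 3, 9902612 to 9916402, plus strand) encodes the chain that confers binding of interleukin 17C. It had 23.8, 21.3 and 20.9 CPM in shECM1 replicates 1, 2 and 3, against 31.1, 24.6 and 30.4 CPM in shNC. The groups did not overlap, but shNC replicate 2 lay close to shECM1 replicate 1, within the 95% counting interval of each (20.9 to 27.0 CPM in shECM1 replicate 1 and 22.0 to 27.3 CPM in shNC replicate 2). IL17RE had a fitted difference of -0.38 ± 0.14 on the log2 scale (SE, 95% confidence interval -0.69 to -0.08), a level 0.766 times that of shNC, and was not called by edgeR (unadjusted p = 0.017, adjusted p = 0.145). Without shNC replicate 2, edgeR called it, at -0.47 (adjusted p = 0.0223), where 14.1% of all genes tested were called lower. It was -0.32 without shNC replicate 1 and -0.34 without shNC replicate 3 (edgeR adjusted p = 0.465 and 0.444).

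IL17RC (ENSG00000163702, chromosome 3, 9917074 to 9933630, plus strand) begins 671 bases after IL17RE ends, on the same strand. It encodes the partner chain for interleukin 17A and 17F. Its counts were low, at 33, 52 and 67 in shECM1 and 80, 47 and 72 in shNC. These gave 3.28, 3.10 and 4.90 CPM in shECM1, against 6.77, 3.38 and 5.15 CPM in shNC. Unlike in IL17RE, the groups crossed, with shECM1 replicate 3 above shNC replicate 2. The fit gave a log2 fold change of -0.43 ± 0.30 (SE, 95% confidence interval -1.08 to 0.22; edgeR adjusted p = 0.398). Single libraries set its size, from -0.18 without shNC replicate 1 to -0.67 without shECM1 replicate 3.

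IL17RA (ENSG00000177663, chromosome 22, 17084954 to 17115694, plus strand) is the chain common to both receptors. It had 12.8, 12.3 and 15.3 CPM in shECM1, against 15.7, 14.4 and 18.3 CPM in shNC. The groups overlapped only through shECM1 replicate 3, whose level exceeded that of shNC replicate 2. Its fitted log2 fold change was -0.26 ± 0.16 (SE, 95% confidence interval -0.61 to 0.09; edgeR adjusted p = 0.344), and it was -0.16 without shNC replicate 3.

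The ratio of the 2 partner chains varied among the libraries of each group. Per kilobase of annotated exon, IL17RE was 7.06, 6.68 and 4.13 times IL17RC in shECM1, against 4.47, 7.07 and 5.72 times in shNC. The shared chain IL17RA was 1.96, 2.0 and 1.57 times IL17RC in shECM1, against 1.16, 2.15 and 1.79 times in shNC. Both ratios overlapped between the groups. Such ratios assume reads over the whole transcript, whereas the labels' protocols also describe a kit that reads the 3′ end.

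TRAF3IP2 was the member whose control libraries varied least relative to their mean. TRAF3IP2 (ENSG00000056972, chromosome 6, 111556454 to 111606278, minus strand), which encodes Act1, had 8.94, 8.88 and 6.73 CPM in shECM1, against 10.7, 10.6 and 11.8 CPM in shNC. Every shECM1 library lay below every shNC library, and shNC replicates 1 and 2 stood side by side. A log2 fold change of -0.43 ± 0.18 (SE, 95% confidence interval -0.82 to -0.04) was fitted, and edgeR did not call it (unadjusted p = 0.0321, adjusted p = 0.185). Leaving out shNC replicate 2, which moved CEBPB and IL17RC, left TRAF3IP2 at -0.45 (adjusted p = 0.106). Without shECM1 replicate 3, TRAF3IP2 was at -0.31 (edgeR adjusted p = 0.268). An antisense gene, Z97989.1, shares 123 exon bases with it (1.9%), and without strand information its reads cannot be told apart from those of TRAF3IP2.

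TRAF6 (ENSG00000175104, chromosome 11, 36487027 to 36510272, minus strand) encodes the ubiquitin ligase that Act1 engages. It had 18.3, 17.6 and 15.4 CPM in shECM1, against 16.5, 19.6 and 22.8 CPM in shNC. The groups overlapped, with shNC replicate 1 below shECM1 replicates 1 and 2. Its log2 fold change was -0.20 ± 0.16 (SE, 95% confidence interval -0.55 to 0.14; edgeR adjusted p = 0.446), and it was -0.08 without shNC replicate 3.

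**Figure D2:**
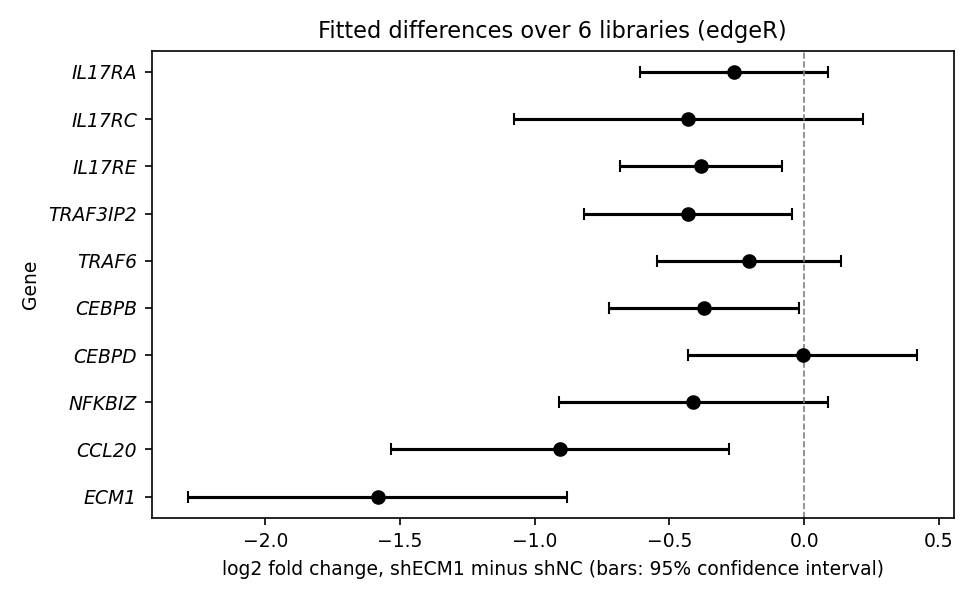
Fitted log2 fold change, shECM1 minus shNC, of the 8 tested members and of CCL20 and ECM1 (edgeR, 3 libraries per group), with 95% confidence intervals. The intervals of IL17RE, TRAF3IP2 and CEBPB end below 0, at -0.08, -0.04 and -0.02, and the interval of CEBPD is centred on 0.

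Of the nuclear effectors, CEBPB stood lower in the shECM1 libraries than in 2 of the 3 control libraries, while the CEBPD levels of both groups covered a common range. CEBPB (ENSG00000172216, chromosome 20, 50190734 to 50192689, plus strand) had 754, 1209 and 1084 counts in shECM1 and 1412, 999 and 1421 in shNC. These gave 74.9, 72.0 and 79.3 CPM in shECM1, against 119, 71.8 and 102 CPM in shNC. The shECM1 libraries lay close together, while shNC replicate 2 lay just below all 3 of them and the other shNC libraries well above. Over all 6 libraries the log2 fold change was -0.37 ± 0.16 (SE, 95% confidence interval -0.73 to -0.02), and edgeR did not call it (unadjusted p = 0.041, adjusted p = 0.202). Without shNC replicate 2 it was -0.54 and called (adjusted p = 0.00502), where 14.1% of all genes tested were called lower. Without shNC replicate 1 it was -0.20 (adjusted p = 0.624). CEBPB-AS1, an antisense gene, shares 231 of its exon bases (11.8%), and counting without strand would merge their reads there.

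CEBPD (ENSG00000221869, chromosome 8, 47736909 to 47739086, minus strand) had 7.25, 9.47 and 10.0 CPM in shECM1, against 9.98, 7.47 and 9.59 CPM in shNC. No library of either group stood apart. At a log2 fold change of -0.01 ± 0.19 (SE, 95% confidence interval -0.43 to 0.42), CEBPD was not called by edgeR (adjusted p = 0.987). The interval leaves room for a difference as large as that fitted for CEBPB. Per kilobase of exon, CEBPB was 11.5, 8.47 and 8.81 times CEBPD in shECM1, against 13.3, 10.7 and 11.8 times in shNC, and the groups overlapped through shECM1 replicate 1.

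NFKBIZ (ENSG00000144802, chromosome 3, 101827991 to 101861022, plus strand), an NF-kB target that in turn assists NF-kB and C/EBP factors at a second wave of genes, had 46, 81 and 48 counts in shECM1 and 57, 77 and 95 in shNC. These gave 4.57, 4.83 and 3.51 CPM in shECM1, against 4.82, 5.53 and 6.80 CPM in shNC. The groups touched, since shECM1 replicate 2 and shNC replicate 1 had nearly the same level. A log2 fold change of -0.41 ± 0.23 (SE, 95% confidence interval -0.91 to 0.09) was not called by edgeR (adjusted p = 0.3), and it was -0.27 without shNC replicate 3.

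LCN2 was barely detected. LCN2 (ENSG00000148346, chromosome 9, 128149071 to 128153455, plus strand) had 4, 4 and 13 counts in shECM1 and 8, 3 and 2 in shNC. The 21 counts in shECM1 came to 0.518 CPM (95% Poisson interval 0.321 to 0.792), and the 13 in shNC to 0.327 CPM (0.174 to 0.56). These intervals cover counting error only, and they overlap. Of the 21 counts, 13 were in shECM1 replicate 3. With no count filter edgeR gave a log2 fold change of 0.65 (adjusted p = 0.631), where 3.08% of genes were called, and no difference was detected. Its known uptake receptors SLC22A17 and LRP2 were also near 0, with a summed level, MC4R included, of at most 0.298 CPM in shECM1 and 0.286 CPM in shNC.

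Levels per kilobase of exon put the genes in the same order in both groups. In shECM1 they ran from 38.5 CPM per kilobase in CEBPB through 4.71 in IL17RE, 4.09 in CEBPD, 3.51 in TRAF6, 1.49 in IL17RA, 1.25 in TRAF3IP2, 0.828 in IL17RC and 0.729 in NFKBIZ to 0.331 in LCN2. In shNC the corresponding means were 49.9, 6.13, 4.14, 4.03, 1.79, 1.68, 1.12, 0.969 and 0.216. CEBPB stood clear of the next gene in every library. In shECM1 the libraries of IL17RE, CEBPD and TRAF6 overlapped from each gene to the next, as did those of TRAF3IP2, IL17RC, NFKBIZ and LCN2. In shNC, IL17RE stood above CEBPD in every library, but CEBPD and TRAF6, IL17RA and TRAF3IP2, and IL17RC and NFKBIZ overlapped. CEBPB alone made up 48.1% to 50.5% of the summed CPM of the 9 genes in shECM1 and 45.6% to 55.4% in shNC. That sum was 149.8 to 156.9 CPM in shECM1 and 157.5 to 215.6 CPM in shNC, lowest in shNC replicate 2 among the controls.

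Among themselves the members followed different courses over the 6 libraries. Profiles were compared as the root mean square difference of log2 CPM, each gene centred on its own mean. NFKBIZ and TRAF3IP2 were the nearest pair of members at 0.10, followed by NFKBIZ and TRAF6 at 0.13. These 3 genes were above their mean in shNC replicate 2 and were lowest in shECM1 replicate 3. IL17RC and CEBPB differed by 0.18 and were both low in shNC replicate 2, where CEBPB was 0.24 and IL17RC 0.32 below its mean. IL17RE lay between them, at 0.14 from CEBPB and from TRAF3IP2 alike. The farthest pair was IL17RC and NFKBIZ at 0.49. CCL20 differed from the members by 0.39 (NFKBIZ) to 0.55 (CEBPD), and it moved over a wider range than any of them. All pairs share the same libraries and depth, and NFKBIZ and IL17RC rest on under 100 counts per library, so these distances are descriptions.

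**Figure D3:**
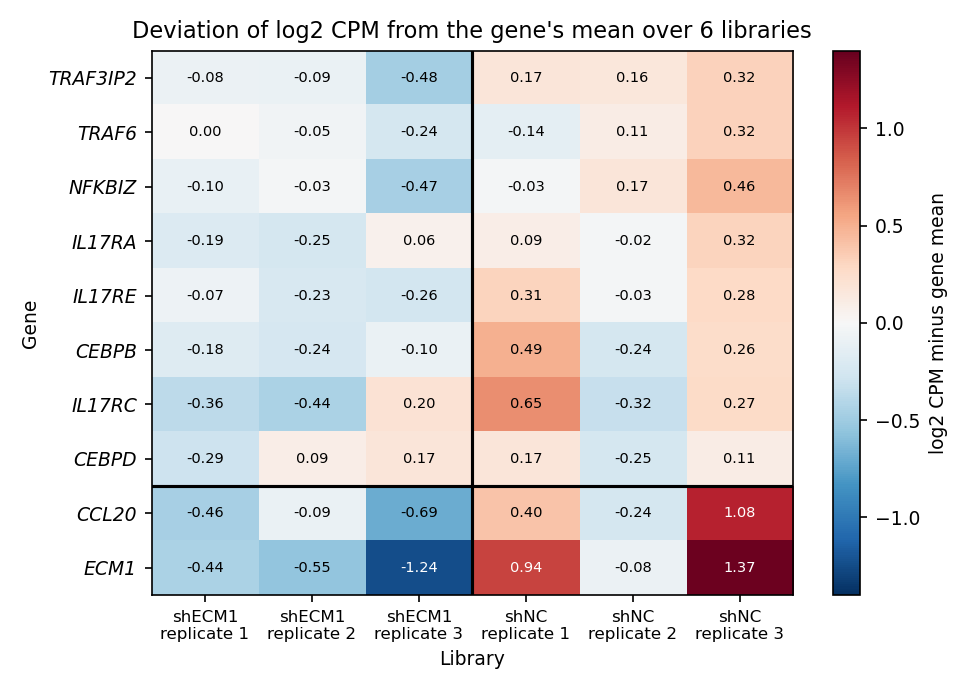
Log2 CPM minus each gene's mean over 6 libraries for the 8 tested members, CCL20 and ECM1, with libraries in columns and rows ordered after the values were seen. In shNC replicate 2, CEBPB (-0.24), IL17RC (-0.32) and CEBPD (-0.25) are below their means, while TRAF3IP2 (0.16), TRAF6 (0.11) and NFKBIZ (0.17) are above theirs.

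By the same measure the tested gene nearest to IL17RE was HOXB6 at 0.03, with TNFRSF21 at 0.03 and BMAL1 at 0.04, among 11521 genes with a mean log2 CPM of at least 1. TRAF3IP2 lay nearest to PEAK1, GDA and UBOX5, at 0.03, 0.03 and 0.05. CEBPB lay nearest to PAX6, EGLN3 and TP53I13, at 0.05, 0.05 and 0.06. NFKBIZ lay nearest to EPN2, CBLB and SEC24A, IL17RA to ERGIC1, PRR13 and TECR, and TRAF6 to RNF19A, ATAT1 and NAPG. IL17RC lay nearest to SLC38A3, TCF19 and BAHCC1, at 0.09 to 0.10, and CEBPD to CYP27A1 and ARNT2. These genes are the closest of all those searched, and their nearness is a description.

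**Figure D4:**
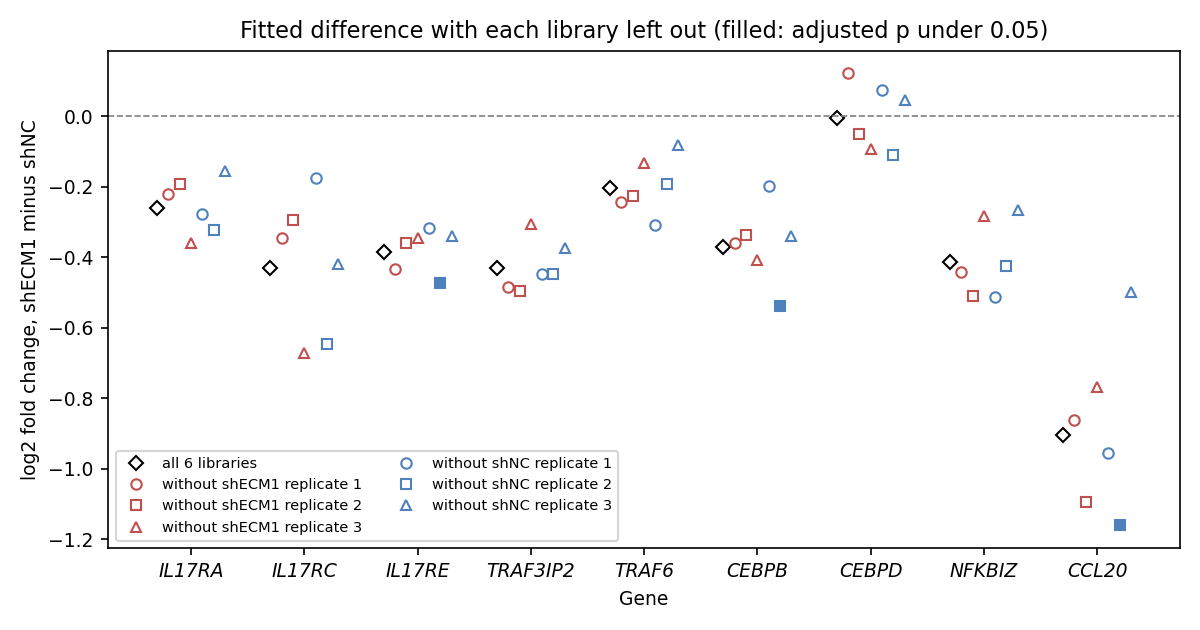
Log2 fold change, shECM1 minus shNC, of the 8 tested members and CCL20 with all 6 libraries (black) and with each library left out (red, a shECM1 library; blue, a shNC library), filled where edgeR's adjusted p was under 0.05. Of the members, IL17RE and CEBPB are filled, both without shNC replicate 2, where 14.1% of all genes were called lower. CEBPD changes sign.

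The other genes of the pathway were read from lists by role. Of the ligands, IL17A, IL17F and IL25 had 0 counts in every library. IL17C, the ligand of the IL17RE receptor, had 2.18, 1.91 and 1.24 CPM in shECM1, against 3.13, 1.01 and 4.87 CPM in shNC, with shNC replicate 2 below all shECM1 libraries (log2 fold change -0.76 ± 0.47 SE, edgeR adjusted p = 0.355). Without that library edgeR called it, at -1.18 (adjusted p = 0.0191). In that fit, chosen after seeing the data, 14.1% of all genes were called lower. IL17C had only 22, 32 and 17 counts in shECM1 and 37, 14 and 68 in shNC. IL17D went the other way, at 0.68 ± 0.33 (SE, edgeR adjusted p = 0.249), with 1.79, 2.44 and 3.29 CPM in shECM1, against 2.11, 1.44 and 1.22 CPM in shNC. The other receptor chains, IL17RB, which binds interleukin 25, and IL17RD, had log2 fold changes of 0.09 and -0.29. Neither passed an unadjusted p under 0.05.

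Of 28 genes of signal transduction, all tested, 0 were called by edgeR. At an unadjusted p under 0.05, 5 were lower and 1 higher, beside 14.2% and 8.31% of all tested genes. A negative log2 fold change was found in 17, with a median of -0.02, beside 48.6% of all tested genes. Every shECM1 library lay below every shNC library in 5 of the 28, beside 13.2% of all tested genes, and above in 4. Without shNC replicate 2, edgeR called 5 lower and 2 higher after adjustment, near the 14.1% lower and 9.73% higher of all genes in that fit. RELA, the p65 subunit of NF-kB, had 98.7, 93.4 and 102 CPM in shECM1, against 131, 117 and 155 CPM in shNC. The groups did not overlap, at a log2 fold change of -0.45 ± 0.12 (SE), which edgeR did not call (adjusted p = 0.104) and DESeq2 did (adjusted p = 0.026). The kinases TYK2, IKBKE and JAK1 had log2 fold changes of -0.37, -0.38 and -0.40. MAPK3, the kinase ERK1, at -0.32, and TBK1, a kinase related to IKBKE, at 0.36, are named after their values were seen.

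Of 7 factors that act on the stability of the pathway's mRNAs, 3 were negative, beside 48.6% of all tested genes. At an unadjusted p under 0.05, 2 were lower and 1 was higher in shECM1, beside 14.2% and 8.31% of all tested genes. Every shECM1 library lay below every shNC library in 2 of the 7, beside 13.2% of all tested genes, and above in 2. ZFP36, tristetraprolin, which destabilises cytokine mRNAs, had 44.4, 37.2 and 35.9 CPM in shECM1, against 89.8, 50.6 and 141 CPM in shNC. ZC3H12A, the endonuclease Regnase-1, had 25.5, 26.2 and 23.5 CPM in shECM1, against 36.6, 30.4 and 46.5 CPM in shNC. In both the groups did not overlap. Their log2 fold changes were -1.26 ± 0.28 and -0.59 ± 0.16 (SE), uncalled by edgeR (adjusted p = 0.0973 and 0.105) and called by DESeq2 (adjusted p = 0.0437 and 0.0236). SRSF1, a splicing factor that also binds chemokine mRNAs, was at 0.28 ± 0.12 (SE).

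In the families of the nuclear effectors, CEBPZ had a log2 fold change of 0.45 ± 0.13 (SE, edgeR adjusted p = 0.112, DESeq2 adjusted p = 0.0406). It shares the name of the C/EBP factors but not their leucine zipper. The other 3 tested genes of that list, CEBPA, CEBPG and DDIT3, were at -0.17, 0.02 and -0.19. Of 6 I-kappa-B genes, 5 were negative, with a median of -0.27, beside 48.6% negative of all tested genes. BCL3, a nuclear I-kappa-B protein like NFKBIZ, had 11.4, 8.10 and 6.07 CPM in shECM1, against 25.2, 10.3 and 37.2 CPM in shNC (log2 fold change -1.52 ± 0.38 SE, edgeR adjusted p = 0.0973). NFKBIE was at -0.50 ± 0.21 (SE, edgeR adjusted p = 0.195). NFKBIA and NFKBIB had log2 fold changes of -0.12 and 0.14.

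Of 39 epithelial target genes, 13 were tested and 13 had 0 counts in every library, among them IL6, DEFB4A, PTGS2 and SAA1. Of the 13 tested, 10 were negative, with a median of -0.59, beside 48.6% negative of all tested genes. At an unadjusted p under 0.05, 7 were lower and 0 higher, beside 14.2% and 8.31% of all tested genes. Every shECM1 library lay below every shNC library in 2 of the 13, beside 13.2% of all tested genes, and above in 0. After adjustment edgeR called 0. Without shNC replicate 2 it called 7 of the 13 lower and 0 higher, beside 14.1% and 9.73% of all genes. CCL20 itself had 13.5, 17.5 and 11.5 CPM in shECM1, against 24.6, 15.7 and 39.6 CPM in shNC, and the groups overlapped through shNC replicate 2. Its log2 difference of -0.91 ± 0.29 (SE) was not called by edgeR (adjusted p = 0.122), but was by DESeq2 (adjusted p = 0.0244) and by edgeR with no count filter (adjusted p = 0.0486). Single libraries moved it from -0.50 without shNC replicate 3 to -1.16 without shNC replicate 2, where edgeR called it (adjusted p = 0.00251). MUC5AC, a secreted mucin, had 4.27, 6.31 and 8.34 CPM in shECM1, against 12.4, 10.8 and 12.9 CPM in shNC, with no overlap (log2 fold change -0.92 ± 0.23 SE, edgeR adjusted p = 0.0973, DESeq2 adjusted p = 0.0107). CSF2, a granulocyte and macrophage growth factor, was at -1.93 ± 0.54 and TNFAIP2 at -0.59 ± 0.17 (SE, edgeR adjusted p = 0.108 each). DESeq2 called TNFAIP2 (adjusted p = 0.0236) and not CSF2 (adjusted p = 0.0998). With no count filter edgeR called CSF2, TNFAIP2 and MUC5AC (adjusted p = 0.0258, 0.0427 and 0.0271), where 3.08% of all genes were called. CSF2 had 2.15 CPM in shNC replicate 2, within the shECM1 range of 1.39 to 2.56, against 6.68 and 14.03 CPM in the other shNC libraries. The fitted differences of CCL20, CSF2 and MUC5AC exceeded in size that of every tested receptor, adaptor and effector. These differences between genes were not tested.

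**Figure D5:**
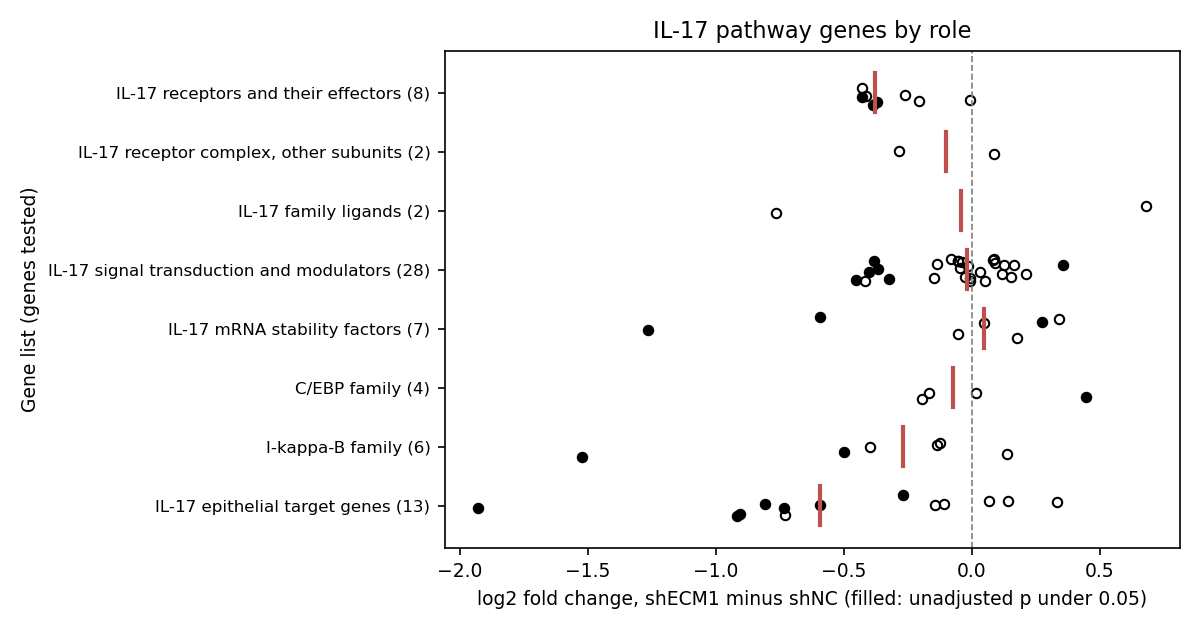
Log2 fold change, shECM1 minus shNC, of each tested gene in the pathway lists, with 1 point per gene (filled at an unadjusted p under 0.05) and a red line at each list's median. The medians run from -0.59 in the epithelial target genes to 0.05 in the mRNA stability factors, with the receptors and effectors at -0.38.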

How the data were processed

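The authors deposited 1 table of raw counts per gene for 6 SW620 libraries, whole numbers with no normalization. The submitters' processing notes name GRCh38, hg38, fastp, STAR, featureCounts, Seurat and DESeq2. How each tool was set, and the annotation and strand option, are not given in those notes. The labels' protocols describe both total RNA extraction and droplet libraries, so a column may be bulk RNA or summed cells. No label says that replicates were separate cultures, so p-values cover the spread among these samples alone, possibly a technical one. No 2 libraries agreed within sampling noise.

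Groups and replicate numbers came from the titles. Symbols were found for 20462 of 20476 identifiers, and coordinates and exon lengths came from GENCODE release 29 (GRCh38). In R 4.3.3, edgeR 4.0.16 kept genes with filterByExpr, scaled by TMM and ran glmQLFit and glmQLFTest over 12576 genes without covariates. Calls needed a Benjamini-Hochberg adjusted p under 0.05. Fold changes are log2, shECM1 minus shNC. The SE is the fold change's size over the root of F. Log2 CPM used a prior count of 2. Counting intervals are exact Poisson intervals at 95%. The procedure was tested on simulated counts. Alternatives were RLE, upper-quartile and unscaled library sizes, no filter, 3 or more libraries with 50 or more counts, DESeq2 1.42.0, limma-voom (limma 3.58.1), a replicate block and each library left out. Leaving shNC replicate 2 out of the pathway lists was chosen after seeing the data. The 9 genes, the lists and the naming rule were chosen with earlier results of these data known. The rule named all members, ECM1 and CCL20, for each list the genes called or else up to 4 at an unadjusted p under 0.05 or the 2 highest, and the 3 nearest profiles of each tested member, 1 of which is not reported here.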

Additional observations from a re-analysis of the deposited data

How the results depend on the processing

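No member was called by edgeR with all 6 libraries, and the count of members called stayed at 0 with RLE, upper-quartile or unscaled factors, no count filter or a stricter one, DESeq2 and limma-voom. Leaving out 1 library gave 0 to 2 members called and 0 to 3037 genes called. It gave 0 to 4 members at an unadjusted p under 0.05, beside 11.3% to 37.3% of all genes. The highest of each came without shNC replicate 2. In that fit the 2 members called were IL17RE and CEBPB, both lower, beside 14.1% of 12730 genes called lower and 9.73% called higher. Over all genes, DESeq2 called 717 and edgeR with no count filter called 505 (3.08%), against 0 with edgeR and the filter. Of the 8 tested members, 7 kept a negative log2 fold change under all 14 alternatives. CEBPD turned positive with library size only (0.021) and limma-voom (0.010), and ranged from -0.11 to 0.12 with 1 library left out, positive without shECM1 replicate 1 (0.12), shNC replicate 1 (0.07) or shNC replicate 3 (0.04). The cause was not tested.

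The replicate number as a block in edgeR gave 0 members and 0 genes called. At an unadjusted p under 0.05 it gave 2 members, beside 2414 of all 12576 genes tested. The deviations of same-numbered libraries correlated at -0.07, -0.05 and -0.18 across genes, so the numbers were not taken to pair the libraries. LCN2, at 2 to 13 counts per library, and NFKBIZ and IL17RC, at 33 to 95, are limited most by depth.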
